A study of Homo sapiens with 8 samples.

Results

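The 9 genes PFDN1, PFDN2, VBP1, PFDN4, PFDN5, PFDN6, UXT, URI1 and PDRG1, which encode the subunits of prefoldin and of the prefoldin-like complex, were followed in a genome-wide growth screen by CRISPR interference. They were chosen by name, as all sgRNAs whose target symbol is one of the 9, in the sets designed for a gene's primary promoter, and they are 9 of 17547 genes tested. The count table lists 90 sgRNAs for them. Of these, 46 had a count of 0 in every library, as did 103686 of all 209070 sgRNAs listed. Another 1, of PFDN1, fell under the minimum mean count of 20, and 43 were kept: 4 each for PFDN1 and PFDN6 and 5 for each of the other genes. None of the 9 has sgRNAs for a separate second promoter.

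The screen used K562, an established human leukemia cell line that the labels describe as lymphoblasts. All cells carried dCas9-KRAB, a DNA-binding but non-cutting Cas9 fused to a repressor domain that an sgRNA brings to a promoter to lower transcription there. Each line stably expressed 1 form of uL16, wild-type or mutant, the ribosomal protein that RPL10 encodes. The labels do not say which mutation, under which promoter it was expressed, whether the cells' own uL16 remained, or whether each line is 1 clone. The design set out to find factors that act on faulty large ribosomal subunits.

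There were 4 groups of 2 libraries each: wild-type uL16 at day 0, wild-type uL16 at day 9, mutant uL16 at day 0 and mutant uL16 at day 9, with no drug treatment other than the puromycin selection of transduced cells that all groups shared. The end point is day 9 in the labels and 10 cell doublings in the design text. Library totals ranged from 39233340 to 143585751 reads, and the median count of a kept sgRNA was 324 to 1209 per library. An sgRNA that lowers growth becomes rarer between the time points, so what is measured is the share of each sgRNA in genomic DNA. No transcript was measured, and neither the cell type's markers nor the extent of each knockdown can be read from these counts. Nothing in the labels says that replicates are separate cultures, so the p-values measure the spread between these libraries, which may be technical.

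Prefoldin is a cytosolic co-chaperone with long coiled-coil arms that takes up newly made actin and tubulin chains and passes them to the chaperonin CCT, also called TRiC, for folding. VBP1 and PFDN5 are its alpha-type subunits, and PFDN1, PFDN2, PFDN4 and PFDN6 are its beta-type subunits. UXT, URI1 and PDRG1 are found with PFDN2 and PFDN6 in the prefoldin-like complex, which works with the R2TP co-chaperone in the assembly of RNA polymerases and other large complexes.

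Since CRISPR interference acts at start sites, promoter windows are shown for 3 members: VBP1 and PDRG1, which fell in both lines, and PFDN6, whose start faces that of another gene. They are taken from RefSeq on GRCh38.p14, run from 250 bases before to 50 bases after an annotated start and are written 5′ to 3′ in the direction of the gene. Where RefSeq lists several starts, 1 window is shown. Capitals mark CCAAT boxes and the YY1 motif in VBP1, a GC box and the ETS motif in PDRG1, and the ETS motif in PFDN6.
VBP1, chrX:155216210-155216509, plus strand: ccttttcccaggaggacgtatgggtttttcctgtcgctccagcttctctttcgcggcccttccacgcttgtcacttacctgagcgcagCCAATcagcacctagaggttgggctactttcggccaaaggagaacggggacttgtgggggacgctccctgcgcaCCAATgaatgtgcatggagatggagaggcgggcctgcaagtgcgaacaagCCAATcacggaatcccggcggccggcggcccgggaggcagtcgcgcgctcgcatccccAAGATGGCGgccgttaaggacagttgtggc
PDRG1, chr20:31951997-31952296, minus strand: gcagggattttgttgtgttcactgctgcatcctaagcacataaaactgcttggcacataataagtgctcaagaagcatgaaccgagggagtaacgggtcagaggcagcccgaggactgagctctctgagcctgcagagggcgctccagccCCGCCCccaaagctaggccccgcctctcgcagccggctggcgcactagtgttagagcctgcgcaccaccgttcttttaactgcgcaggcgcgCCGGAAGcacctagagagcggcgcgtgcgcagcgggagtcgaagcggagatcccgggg
PFDN6, chr6:33289347-33289646, plus strand: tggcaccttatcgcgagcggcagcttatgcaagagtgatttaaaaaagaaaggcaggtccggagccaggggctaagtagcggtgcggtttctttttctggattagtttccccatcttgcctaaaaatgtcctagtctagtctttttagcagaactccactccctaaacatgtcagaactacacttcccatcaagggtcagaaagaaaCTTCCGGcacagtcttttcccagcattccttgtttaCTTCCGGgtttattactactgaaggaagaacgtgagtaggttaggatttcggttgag

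Of the 9 genes, 8 have an entry among the 35116 windows searched, all but PFDN2. A gene is counted if any of its windows holds the motif, and VBP1, URI1 and PFDN6 have several. The percentages are of single windows, so the shares are not on the same footing. The ETS motif CCGGAAG, read on both strands as all motifs here, was found in 5 of the 8 (PDRG1, PFDN5, PFDN6, URI1 and UXT) and in 10.3% of all windows. In the PFDN6 window shown it begins at bases -43 and -7 from the start, on the reverse strand, and in PDRG1 at base -8. The YY1 motif AAGATGGCG was found in VBP1 and in PFDN4, against 1.7% of all windows. In VBP1 it lies at base 21 of the window shown and was not found in the gene's other windows. The CCAAT box was found in PFDN4, UXT and VBP1 (34.6% of all windows). The VBP1 window shown has 3 of them, at bases -162, -88 and -38, and their positions differ in its other windows. The GC box GGGCGG was found in 4 of the 8 (45.0% of all windows), and the NRF1 motif, the E-box CACGTG and TATAAA in none. The CCAAT letters and the other motifs overlap nowhere in the windows shown. These are matches of letters only.

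In both lines the loss of sgRNAs was uneven across the complex. PFDN2 sgRNAs all but disappeared, at 17.1-fold lower in wild-type and 20.7-fold lower in mutant cells, VBP1 sgRNAs fell 2.65-fold and 2.95-fold, and PDRG1 sgRNAs fell 1.71-fold and 1.46-fold. PFDN1 passed the test in mutant but not in wild-type cells, and UXT, PFDN4, PFDN5, PFDN6 and URI1 did not in either. By the quasi-likelihood test of edgeR on the summed counts of each gene, with Benjamini-Hochberg adjustment over all genes and a threshold of 0.05, 3 of the 9 were lower at day 9 in wild-type cells, where 9.28% of all genes were, and 4 of the 9 in mutant cells, where 9.07% were. None was higher, against 0.986% and 0.798% of all genes. Levels are given as CPM, the summed counts of a gene scaled to a common library size.

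**Figure D1:**
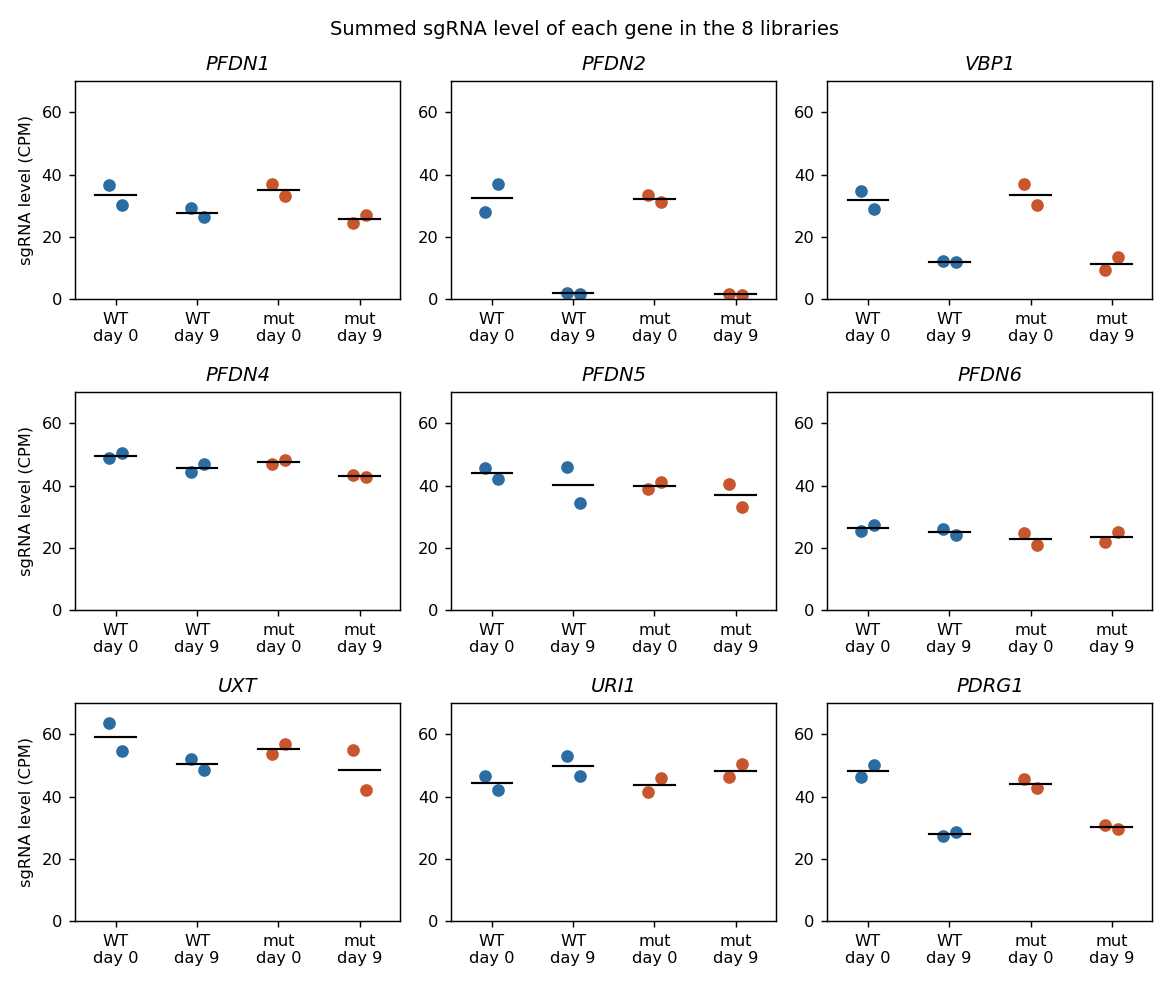
Summed sgRNA level of each gene in CPM (vertical axis, the same scale in every panel) for the 8 libraries: points are libraries, bars are means of 2, blue is wild-type uL16 and orange is mutant uL16. PFDN2 drops from 27.95 to 37.04 CPM at day 0 to 1.38 to 2.11 CPM at day 9, while the points of PFDN6 overlap between the days.

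Among the beta-type subunits, PFDN2, which belongs to both complexes, stood lowest. In wild-type cells its sgRNAs summed to 27.95 and 37.04 CPM at day 0 and to 2.11 and 1.69 CPM at day 9. In mutant cells they summed to 33.4 and 31.1 CPM at day 0 and to 1.74 and 1.38 CPM at day 9. Every day 9 library lay below every day 0 library, and a small part of the starting level was left, 5.84% in wild-type and 4.82% in mutant cells. The log2 change was -4.10 (SE 0.25, edgeR adjusted p = 1.57e-14) in wild-type cells, the lowest of all 17547 genes, and -4.41 (SE 0.25, edgeR adjusted p = 2.19e-15) in mutant cells, where it ranked 5 from the lowest.

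PFDN1, another beta-type subunit, moved far less. It stood at 36.7 and 30.1 CPM at day 0 and 29.2 and 26.4 CPM at day 9 in wild-type cells, and at 37.1 and 33.2 CPM and then 24.5 and 26.9 CPM in mutant cells. The day 9 libraries lay below the day 0 libraries in both lines, as they did for 24.2% of all genes in wild-type and 24.5% in mutant cells. Its log2 change was -0.45 (SE 0.14, edgeR adjusted p = 0.0408) in mutant cells and -0.26 (SE 0.14, edgeR adjusted p = 0.316) in wild-type cells. The call in mutant cells was lost in 10 alternative settings, among them each of those that leave out 1 mutant library (adjusted p 0.0611 to 0.469) or 1 wild-type day 0 library (0.0563 and 0.0617), and without its sgRNA 3 (adjusted p = 0.631).

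The remaining beta-type subunits, PFDN4 and PFDN6, were not called in either line. PFDN4 went from 48.8 and 50.5 CPM to 44.4 and 47.0 CPM in wild-type cells and from 47.0 and 48.1 CPM to 43.5 and 42.8 CPM in mutant cells. The days did not overlap in either line, but the log2 changes were small, at -0.12 (95% interval -0.34 to 0.10) and -0.14 (-0.36 to 0.08). PFDN6 went from 25.6 and 27.3 CPM to 26.2 and 24.3 CPM in wild-type cells and from 24.9 and 21.1 CPM to 21.8 and 25.2 CPM in mutant cells. Its days overlapped in both lines, and its log2 changes were -0.07 (95% interval -0.40 to 0.26) and 0.04 (-0.29 to 0.36).

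The alpha-type subunits also parted. VBP1, which takes its name from binding the von Hippel-Lindau protein, went from 34.7 and 29.0 CPM to 12.2 and 11.9 CPM in wild-type cells. In mutant cells it went from 37.0 and 30.1 CPM to 9.39 and 13.4 CPM. All day 9 libraries lay well below the day 0 libraries, with 37.7% and 33.9% of the starting level left. The log2 change was -1.41 (SE 0.19, edgeR adjusted p = 4.00e-07) in wild-type and -1.54 (SE 0.19, edgeR adjusted p = 5.33e-08) in mutant cells.

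PFDN5, the other alpha-type subunit, also known as a MYC-binding protein, went from 45.7 and 42.2 CPM to 46.1 and 34.5 CPM in wild-type cells and from 38.95 and 41.08 CPM to 40.6 and 33.3 CPM in mutant cells. The libraries of the time points overlapped in both lines. Its log2 changes were -0.13 (95% interval -0.40 to 0.14) and -0.12 (-0.39 to 0.15), and neither passed the test.

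Of the prefoldin-like subunits, PDRG1, a small protein named for its response to p53 and DNA damage, was the only one called. It went from 46.3 and 50.2 CPM to 27.5 and 28.8 CPM in wild-type cells and from 45.6 and 42.7 CPM to 30.8 and 29.6 CPM in mutant cells. The days did not overlap, and 58.4% and 68.3% of the starting level was left. The log2 change was -0.78 (SE 0.12, edgeR adjusted p = 1.02e-05) in wild-type and -0.55 (SE 0.12, edgeR adjusted p = 0.00130) in mutant cells. Without mutant day 0 replicate 1 the latter was -0.50 with an adjusted p of 0.0523.

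UXT, an alpha-type subunit of the prefoldin-like complex, went from 63.7 and 54.8 CPM to 52.0 and 48.7 CPM in wild-type cells and from 53.6 and 56.9 CPM to 55.2 and 42.3 CPM in mutant cells. The days were apart in wild-type cells and overlapped in mutant cells. Its log2 changes were -0.24 (95% interval -0.47 to 0.00) and -0.19 (-0.43 to 0.05), with edgeR adjusted p-values of 0.252 and 0.439. URI1, the scaffold-like subunit after which the URI complex is named, was the only member with estimates above 0 in both lines. It went from 46.6 and 42.3 CPM to 53.2 and 46.7 CPM in wild-type cells and from 41.5 and 45.9 CPM to 46.4 and 50.5 CPM in mutant cells. The day 9 libraries of URI1 lay above its day 0 libraries in both lines, and the share of all genes that did so was not computed. Its log2 changes of 0.17 (95% interval -0.07 to 0.40) and 0.15 (-0.08 to 0.38) did not pass the test.

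In the order of the estimates, the 95% intervals of PFDN2 and VBP1 were apart in both lines. Those of VBP1 and PDRG1 met at -1.03 in wild-type cells and were apart in mutant cells. From PDRG1 upward, each gene's interval overlapped that of the next, so PDRG1 and PFDN1 overlapped in both lines. No test between genes was run. On the scale of growth screens, as the log2 change per doubling relative to the median of 1894 non-targeting control sgRNAs, PFDN2 scored -0.409 ± 0.0221 (SD, n = 2) in wild-type and -0.438 ± 0.0233 (SD, n = 2) in mutant cells. VBP1 scored -0.142 ± 0.00279 and -0.159 ± 0.0359, PDRG1 -0.0799 ± 0.00461 and -0.0572 ± 0.00421, and PFDN1 -0.0282 ± 0.0104 and -0.0471 ± 0.00961 (SD, n = 2 each). Both values behind each SD were taken against the same day 0 mean, so these SDs hold the spread of the day 9 libraries only. The control median itself was 0.02 in both lines on the log2 scale, with an SD over control sgRNAs of 0.37 and 0.35.

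The difference of the growth changes, mutant minus wild-type, asks whether a knockdown acted differently in the line with mutant uL16. No member passed this test: 0 of the 9 were lower, where 3 of 17547 genes (0.0171%) were, and 0 of the 9 were higher, as was no gene in the screen. By an unadjusted p under 0.05, edgeR also gave 0 of the 9, against 997 of all genes, and DESeq2 and limma called 0 of the 9 after adjustment. The largest estimates were -0.32 for PFDN2 (95% interval -1.02 to 0.39) and 0.23 for PDRG1 (-0.13 to 0.58). For VBP1 the difference was -0.13 (-0.66 to 0.40) and for PFDN1 -0.18 (-0.60 to 0.23). PFDN4, PFDN5, PFDN6, UXT and URI1 had estimates from -0.02 to 0.10, with intervals that together run from -0.38 to 0.57. On simulated data this test called 28% of genes whose change differed by -0.5 on the log2 scale and 96% at -1. Only the mutant day 9 libraries were changed there. How often the test calls a difference in genes depleted in both lines, as PFDN2 and VBP1 were, was not tested. No difference between the lines was called for a member at the start. At day 0, edgeR called 0 of the 9 and 0 of 17547 genes, with 0 of the 9 at an unadjusted p under 0.05. The estimates ran from -0.20 (PFDN6) to 0.07 (PFDN1), with 95% intervals that together run from -0.53 to 0.44.

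**Figure D2:**
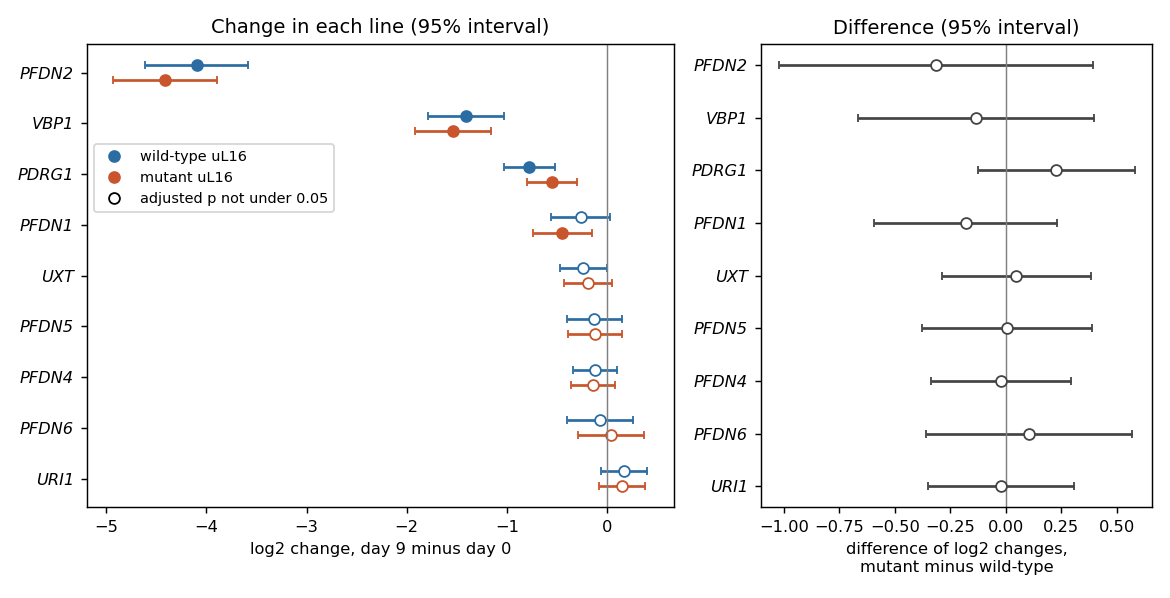
Left, log2 change of the summed sgRNA counts from day 0 to day 9 with its 95% interval, for wild-type (blue) and mutant (orange) uL16 cells, with filled points where the edgeR adjusted p is under 0.05. Right, the mutant change minus the wild-type change, with its 95% interval: all 9 intervals include 0, and the widest, of PFDN2, runs from -1.02 to 0.39.

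Single sgRNAs show how alike the sgRNAs of a gene behaved. They are numbered here by position within each gene, and each was tested alone with edgeR, adjusted over all 87897 sgRNAs. In wild-type cells 11 of the 43 were lower (25.6%), where 5.92% of all sgRNAs were. In mutant cells 13 of the 43 were lower (30.2%), where 5.77% of all sgRNAs were. None of the 43 was higher in either line, and the share of all sgRNAs called higher was not computed. In the difference between lines 0 of the 43 and 0 of all sgRNAs were called, and 1 of the 43 had an unadjusted p under 0.05 (PFDN2 sgRNA 2, with a difference of -1.38). Over the 43 sgRNAs the changes in the lines, which share no library, correlated with Pearson's r = 0.916 and Spearman's rho = 0.711, and without PFDN2 with r = 0.767 and rho = 0.586 over 38 sgRNAs. This is a correlation across sgRNAs, which are not independent replicates, and all sgRNAs share the same libraries. The count of 13 in mutant cells was 6 without mutant day 0 replicate 1 and 7 without mutant day 0 replicate 2.

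All 5 sgRNAs of PFDN2 were called in both lines. They lie within 49 bp of each other, with log2 changes from -4.61 to -3.79 in wild-type and from -5.17 to -3.49 in mutant cells. PFDN2 sgRNA 1 was counted 559 and 716 times at day 0 and 30 and 23 times at day 9 in wild-type cells, and 758 and 1373 times and then 10 and 53 times in mutant cells. PFDN2 sgRNA 3, the rarest, went from 43 and 87 counts to 3 and 1 in wild-type and from 74 and 194 to 2 and 12 in mutant cells. Even the rarest of the 5 was lower in every day 9 library. The counts are of reads, so PCR copies of the same molecule may be counted more than once. They are not numbers of independent molecules.

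The sgRNAs of VBP1 were also all below 0. Their log2 changes ran from -2.39 to -0.85 in wild-type cells, where sgRNAs 1 and 3 were called, and from -2.41 to -0.87 in mutant cells, where sgRNAs 1 to 4 were. The weakest, sgRNA 5, lies farthest out, 422 bp from sgRNA 1. The strongest in wild-type cells, VBP1 sgRNA 3, went from 458 and 354 counts to 43 and 65, and in mutant cells from 522 and 773 to 35 and 153.

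In PDRG1 the change rested on sgRNAs 2 and 4. PDRG1 sgRNA 2 changed by -2.46 (edgeR adjusted p = 2.02e-05) in wild-type and -1.96 (edgeR adjusted p = 0.000234) in mutant cells, and sgRNA 4 by -1.07 (0.0367) and -1.15 (0.0219). PDRG1 sgRNA 3, which lies between them, 62 bp from sgRNA 2 and 26 bp from sgRNA 4, changed by -0.56 and -0.11, and sgRNAs 1 and 5 lay between -0.12 and 0.20. The summed change in mutant cells was -0.26 (adjusted p = 0.345) without sgRNA 2 and -0.41 (adjusted p = 0.0609) without sgRNA 4, whereas in wild-type cells the call held without any 1 of the 5. The cause of the uneven response was not tested.

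In UXT and PFDN1 a single sgRNA stood out. UXT sgRNA 2 went from 17.3 and 11.6 CPM to 3.90 and 5.54 CPM in wild-type cells and from 13.7 and 13.8 CPM to 8.27 and 4.91 CPM in mutant cells. Its log2 changes were -1.61 (edgeR adjusted p = 0.000225) and -1.08 (edgeR adjusted p = 0.0126), larger than those of the other UXT sgRNAs, which ran from -0.31 to 0.48. UXT sgRNAs 3, 4 and 5 lie only 31 to 47 bp from it. Without sgRNA 2 the summed change of UXT was 0.03 in wild-type and 0.02 in mutant cells, and without sgRNA 1 it was -0.46 in wild-type cells (adjusted p = 0.0269), past the threshold. PFDN1 sgRNA 3 changed by -0.84 (edgeR adjusted p = 0.0372) and -0.81 (edgeR adjusted p = 0.0454), and the other 3 sgRNAs of PFDN1 by -0.62 to 0.31. Without it, the summed change of PFDN1 was 0.04 in wild-type and -0.22 in mutant cells.

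No sgRNA of PFDN4, PFDN5, PFDN6 or URI1 was called in either line. Their lowest values were -1.11 for PFDN4 sgRNA 5 in wild-type cells, against 0.60 in mutant cells, -1.16 for PFDN5 sgRNA 2 in mutant cells, against -0.23 in wild-type cells, and -1.64 for PFDN6 sgRNA 1 in mutant cells, against -0.17 in wild-type cells. In these 3 cases the lines gave unlike values for the same sgRNA, and the difference did not pass the test. In the line given second, the day 9 replicates were also far apart. PFDN4 sgRNA 5 stood at 0.87 and 2.61 CPM in mutant cells. In wild-type cells PFDN5 sgRNA 2 stood at 5.63 and 1.46 CPM and PFDN6 sgRNA 1 at 2.53 and 0.79 CPM. URI1 sgRNAs ran from -0.07 to 0.74.

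**Figure D3:**
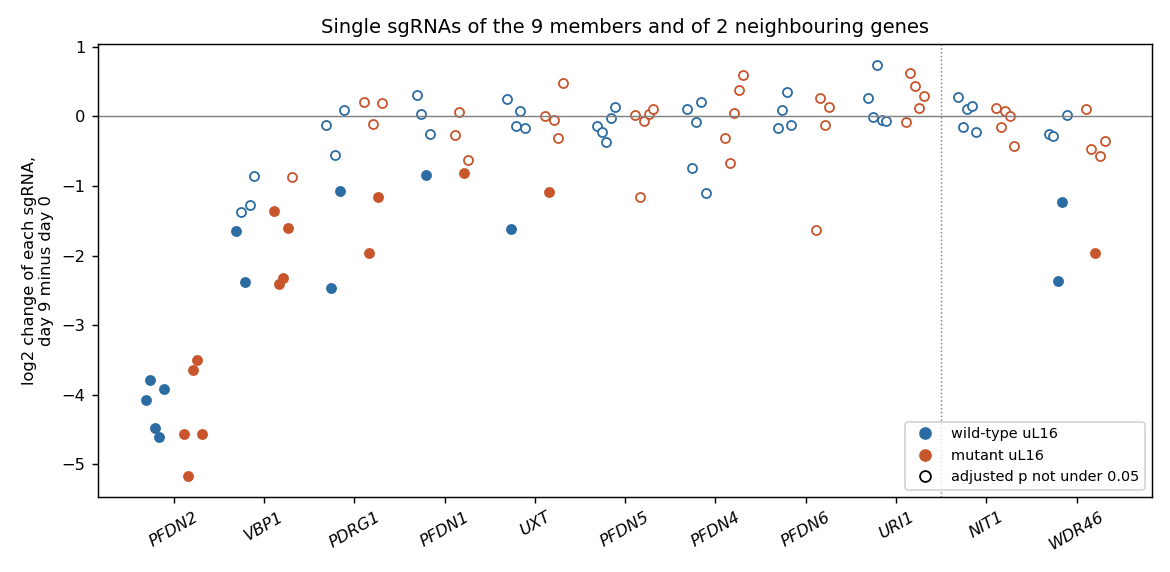
Log2 change of each sgRNA from day 0 to day 9 (vertical axis), for the 9 members and, right of the dotted line, the neighbouring genes NIT1 and WDR46, in wild-type (blue) and mutant (orange) cells, with filled points where the edgeR adjusted p is under 0.05. All PFDN2 points lie at or under -3.49, whereas UXT has 1 filled point in each line (-1.61 and -1.08) among others near 0.

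Neighbours were sought by the positions in the sgRNA names, only among sgRNAs with counts whose symbols could be matched to a chromosome. By this search, PFDN2 and PFDN6 are the members with sgRNAs within 1 kb of those of another gene. This matters because dCas9-KRAB bound between close start sites can act on either gene. The 5 sgRNAs of PFDN2 lie 95 to 144 bp from those of NIT1, a metabolite-repair amidase. In RefSeq the genes lie on chromosome 1 with 67 bases between PFDN2 (chr1:161100561-161118037) and NIT1 (chr1:161118105-161125445). The 5 sgRNAs of NIT1 itself ran from -0.22 to 0.28 in wild-type and from -0.42 to 0.13 in mutant cells, none was called, and the gene's log2 change was -0.01 (edgeR adjusted p = 0.984) and -0.11 (edgeR adjusted p = 0.632). The sgRNAs on the PFDN2 side of this short interval thus fell, and those on the NIT1 side were not called.

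The 4 sgRNAs of PFDN6 lie 423 to 844 bp from those of WDR46, a nucleolar ribosome assembly factor on the opposite strand whose gene span shares 43 bases with that of PFDN6 on chromosome 6. Their annotated starts lie 358 bp apart. Here the neighbour was the gene that fell: WDR46 changed by -0.69 (SE 0.14, edgeR adjusted p = 0.000292) in wild-type and -0.56 (SE 0.14, edgeR adjusted p = 0.00315) in mutant cells. Of its 5 sgRNAs, 2 were called in wild-type cells (sgRNA 3 at -2.37 and sgRNA 4 at -1.23) and 1 in mutant cells (sgRNA 3 at -1.96). None of the PFDN6 sgRNAs was called. The one nearest to WDR46, PFDN6 sgRNA 1, changed by -0.17 in wild-type cells (edgeR adjusted p = 0.958) and by -1.64 in mutant cells (95% interval -3.10 to -0.17, edgeR adjusted p = 0.293). Annotated starts of other genes also lie close at UXT (347 bp, UXT-AS1) and PFDN4 (46 bp, LOC124904937). For these members the search found no sgRNA of another gene within 1 kb, though sgRNAs without counts were not searched.

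**Figure D4:**
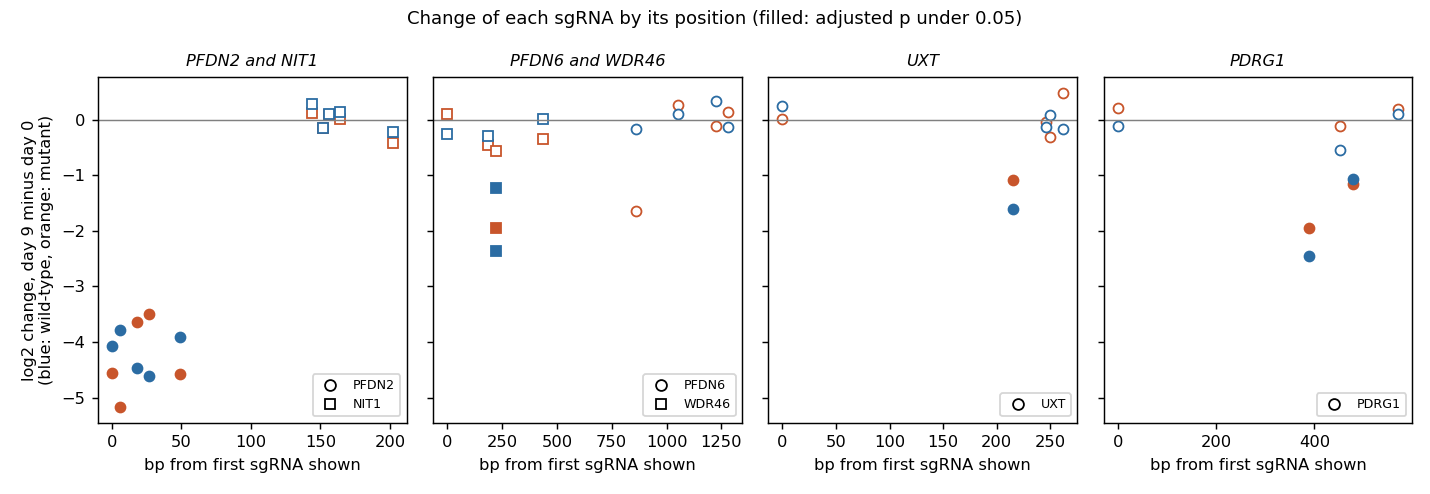
Log2 change of each sgRNA (vertical axis) against its distance in bp from the first sgRNA shown (horizontal axis) at PFDN2 and NIT1, PFDN6 and WDR46, UXT, and PDRG1, blue for wild-type and orange for mutant cells, filled where the edgeR adjusted p is under 0.05. All PFDN2 sgRNAs, within the first 49 bp, lie at or under -3.49 and those of NIT1, from 144 bp on, lie at -0.42 or above, while UXT sgRNA 2 at 215 bp stands alone beside sgRNAs from 246 bp on.

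The chaperonin CCT, which receives prefoldin's clients, lost sgRNAs across nearly all its subunits. Of its 8 subunit genes, 7 were lower in each line, all but CCT8 at -0.06 and -0.27, with a median log2 change of -1.49 in wild-type and -1.33 in mutant cells, where the median of all genes was 0.01. CCT7 changed by -2.22 and -1.85, CCT2 by -1.86 and -1.87, and CCT3, which has sgRNAs close to those of TSACC, by -1.53 and -1.12. TCP1, CCT5 and CCT6A, also among those called, have sgRNAs close to those of MRPL18, FAM173B and PSPH. The count and the median thus include genes whose sgRNAs may act on a neighbour. The 6 canonical prefoldin subunits had a median of -0.20 and -0.29, with 2 lower in wild-type and 3 in mutant cells, and the 3 prefoldin-like subunits a median of -0.24 and -0.19 with 1 lower in each. In wild-type cells PFDN2 alone lay below every CCT subunit. VBP1 lay within their range of -2.22 to -0.06, as did every other member but URI1, which lay above it.

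**Figure D5:**
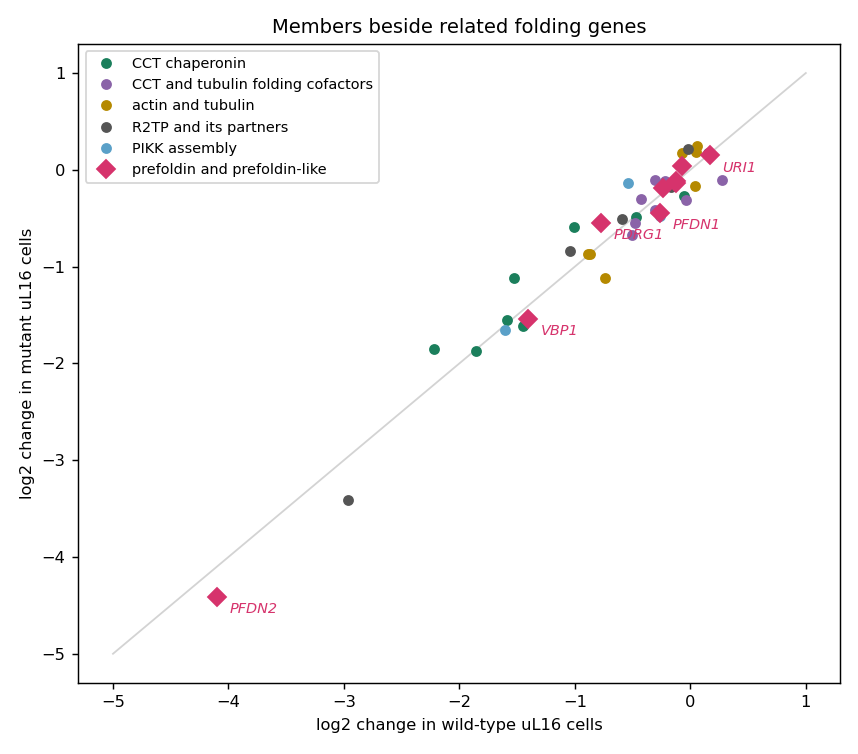
Log2 change from day 0 to day 9 in wild-type (horizontal axis) against mutant uL16 cells (vertical axis) for the 9 members (diamonds) and genes of related folding steps (circles), with the line of equal change in gray. PFDN2 lies lowest at -4.10 and -4.41, followed by RUVBL1 at -2.97 and -3.41, and VBP1 at -1.41 and -1.54 lies among the CCT subunits.

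Genes of neighbouring folding steps were affected in part. Of 8 cofactors of CCT and of tubulin folding, 3 were lower in wild-type and 2 in mutant cells: TBCE (-0.51 and -0.67) and TBCD (-0.48 and -0.55), which assemble the tubulin dimer, in both, and TBCA (-0.43, and -0.30 with an edgeR adjusted p of 0.140) in wild-type cells. Of 8 actin and tubulin genes, TUBB (-0.87 in both lines) and TUBA1B (-0.88 and -0.87) were lower in both, and TUBG1, which has sgRNAs close to those of FAM134C, in mutant cells (-1.12, against -0.74 with an edgeR adjusted p of 0.0594). Neither ACTB nor ACTG1, the cytoplasmic actins, passed the test.

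Of the 6 genes of R2TP and its partners, with which the prefoldin-like subunits associate, 3 were lower in both lines. RUVBL1, an AAA+ ATPase, changed by -2.97 and -3.41, RPAP3, the scaffold of R2TP, by -1.04 and -0.84, and RUVBL2, which has sgRNAs close to those of GYS1, by -0.59 and -0.51. Of the 3 genes of the TTT complex, which works with R2TP in the assembly of PI3-kinase-like kinases, TTI1 was lower in both lines (-1.61 and -1.65), though it has sgRNAs close to those of RPRD1B. TTI2 was lower in wild-type cells (-0.54, against -0.14) and TELO2 in mutant cells (-0.47, against -0.26). None of the genes of these lists was called in the difference between the lines, so unequal calls in the lines are not shown to differ.

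The 5 genes outside the 9 whose levels over the 8 libraries lay closest to the mean profile of the 6 canonical subunits were GPATCH1, NOL11, ARL1, MRPL9 and TREX2. Their root mean square distances on the log2 scale ran from 0.0491 to 0.0664, and MRPL9 and TREX2 have sgRNAs close to those of OAZ3 and HAUS7. No member lay close to that mean: the nearest was PDRG1, ranked 559 of 17547 at a distance of 0.308, then VBP1, ranked 662 at 0.337, and PFDN2 was the farthest of all genes at 2.24. The mean of the canonical subunits, between -1.12 and -0.93 in the day 9 libraries on the log2 scale, thus lies where no subunit does.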

How the data were processed

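Genomic DNA of 8 K562 libraries was amplified around the sgRNA and sequenced. The authors deposited raw counts of reads for each sgRNA, not normalized. Per the file headers, reads were trimmed to bases 1 to 39. The counting program was not given in the sources used here. Positions within sgRNA names are of an unstated build, so only distances are printed from them. Groups and replicate numbers are those of the labels.

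An sgRNA was kept at a mean count of at least 20 over the 8 libraries. Kept sgRNAs of the primary promoter sets were added up for each gene with at least 3 of them. Genes with sets named by a transcript were left out, except in 1 added alternative. Counts were normalized by TMM and fitted in R 4.3.3 with edgeR 4.0.16 (glmQLFit, glmQLFTest), 1 mean per group over all 8 libraries, with 4 residual degrees of freedom. CPM are scaled by TMM. The growth phenotype is the log2 change minus the control median, divided by 10 doublings, each day 9 library against the day 0 mean of its line.

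Alternatives were RLE or control-based scaling, DESeq2 1.42.0, limma 3.58.1 on mean log2 CPM with a prior count of 2, other filters and promoter sets, fewer libraries, a replicate block, and leaving out libraries. Leaving out each member sgRNA in turn and adding the transcript-named sets were chosen after seeing the data. On simulated data, with 50 of 17547 genes changed at each of 4 sizes, the test called 70% (wild-type change), 76% (mutant change) and 28% (difference) of genes with a log2 change of -0.5, and 100%, 100% and 96% at -1. For the difference, only the mutant day 9 libraries were changed.

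The text names the 9 members, genes with sgRNAs within 1 kb of theirs, up to 3 genes of each list with the smallest p, and the 5 genes closest in profile. CCT8, ACTB and ACTG1 were named after their values were seen, and TCP1, CCT5 and CCT6A for their sgRNAs close to those of other genes. The members and lists were chosen with earlier results of these data known.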

Additional observations from a re-analysis of the deposited data

How the results depend on the processing

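The calls of PFDN2 and VBP1 in both lines and of PDRG1 in wild-type cells held in every setting that could give a value, whereas PDRG1 in mutant cells lost its call in 3 settings and PFDN1 in 10. Without sgRNAs near another gene, PFDN2 and PFDN6 have none left and gave no value. Members called lower in mutant cells numbered 2 to 4 when 1 library or 1 sgRNA of each member was left out, with 2 without mutant day 0 replicate 1 and without each member's sgRNA 4. Member sgRNAs called there numbered 6 to 15. Genes called lower in the difference, 3 in all, were 29 with DESeq2, 1 with limma, 1 with all promoters pooled and 1 to 15 with 1 library left out (15 without wild-type day 9 replicate 1, 1 without wild-type day 0 replicate 1). The replicate block gave 9 and changed no member's call. Same-numbered day 0 and day 9 libraries deviated together with correlations of 0.02 in wild-type and 0.04 in mutant cells. Same-numbered libraries of different lines gave 0.001 at day 0 and -0.008 at day 9. Such small values cannot settle whether the replicate numbers pair the libraries. With the mean of sgRNA changes, the growth phenotype was -0.0716 for PDRG1 in mutant and -0.0850 in wild-type cells and -0.151 for VBP1 in wild-type cells.

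Changes of sign touched only values that were not called. With limma the difference was 0.30 for PFDN4, -0.064 for PFDN5, -0.32 for PFDN6 and 0.11 for URI1, and the mutant change of PFDN6 was -0.33. Without the most abundant sgRNA the difference was -0.055 for PFDN5, -0.20 for PFDN6 and 0.18 for URI1, the wild-type change was 0.058 for PFDN1 and 0.11 for PFDN6, and the mutant change of PFDN6 was -0.093. With 1 library or 1 sgRNA left out, the difference ran from -0.72 to 0.079 for PFDN2, -0.42 to 0.085 for VBP1, -0.16 to 0.17 for PFDN4, -0.19 to 0.23 for PFDN5, -0.20 to 0.23 for PFDN6, -0.11 to 0.18 for URI1 and -0.15 to 0.23 for UXT. The wild-type change ran from -0.42 to 0.043 for PFDN1, -0.35 to 0.066 for PFDN5, -0.12 to 0.090 for PFDN6 and -0.46 to 0.029 for UXT. The mutant change ran from -0.26 to 0.022 for PFDN5, -0.11 to 0.16 for PFDN6 and -0.39 to 0.021 for UXT. Apart from the sgRNAs left out, the cause was not tested. On simulated data with a log2 change of -0.5, the test called 70% of genes for the wild-type change, 76% for the mutant change and 28% for the difference, and smaller sizes were not simulated. A difference between genes depleted in both lines was not simulated either.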
